A study of Mus musculus with 28 samples.

Results

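The comparison described here set mouse XEN-eYFP cells given recombinant Cripto together with SB431542 against the same cells given SB431542 without Cripto. Its members were chosen by the treatment label of each array: 5 arrays carried both agents and 5 carried SB431542, which makes 10 of the 28 arrays in the series. All arrays came from the cell line labelled Xen-eyfp after 96 h in culture. The comparisons used Cripto at 100 ng/ml with SB431542 (5 arrays) and Cripto at 100 ng/ml without the inhibitor (5 arrays). They also used Nodal at 50 ng/ml with SB431542 (3 arrays), SB431542 (5 arrays) and Media (5 arrays). Nodal at 50 ng/ml without the inhibitor (5 arrays) was not tested against another group, and means of a few genes are given for it. Its arrays entered the fit and the fit's estimate of the spread. No dose of SB431542 is labelled, and nothing says that the replicates were separate cultures, so each p-value measures the spread between these arrays, which may be technical. Each array measured 200 ng of total RNA by hybridisation to Illumina mouse whole-genome bead probes.

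XEN cells are stem cells derived from the extraembryonic endoderm, the lineage that covers the early embryo as visceral endoderm and lines the yolk sac cavity as parietal endoderm. Cripto is an EGF-CFC protein that joins Nodal to the Alk4 (Acvr1b) and activin type II receptors, which then phosphorylate Smad2 and Smad3. SB431542 blocks the kinases of Alk4, Alk5 and Alk7. Cripto has also been described to bind glypican-1 and Grp78 and to activate Src, Ras/ERK and PI3K/Akt signalling without these kinases, so the comparison asks which genes respond to Cripto while the kinase is blocked.

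Arrays given Cripto with SB431542 were brighter than the SB431542 arrays. Their mean signal over probes was 781 ± 103 intensity units, against 462 ± 169 for SB431542 (SD, n = 5 each; difference 318.7, exact two-sided permutation test p = 0.0159, with BeadChip not in the test). BeadChips are glass slides that each hold several arrays. Chip 5, dim in all its groups (183.8 to 340.6), held 1 SB431542 array and none of Cripto with SB431542. Without that array the difference was 252.1 (exact permutation p = 0.0238), and on the 3 BeadChips with both groups the ratio was 1.33 to 1.45. The median signal of an array differed by 23.06 (exact permutation p = 0.103). The number of probes detected was 14572 ± 648.7 in Cripto with SB431542 and 14882 ± 785.5 in SB431542. With each array's brightness as a further term in the fit, 5489 genes passed the test, against 6535 without it. Arrays on BeadChips 1 to 4 and those on BeadChips 5 to 7 lay apart on the second principal component, which held 24.9% of the variance. BeadChip was therefore a term of the fit, and counts are also given within each set. Values are normalised log2 intensities, and a change is Cripto with SB431542 minus SB431542, estimated with the BeadChip term, with limma's standard error (SE). A gene passed the test below a limma adjusted p (Benjamini-Hochberg) of 0.05 over all 9951 genes, and "rose" and "fell" refer to such genes. The 10 markers of XEN identity were all detected, with summed linear levels of 116100 to 141000 in Cripto with SB431542 and 171600 to 188000 in SB431542. Gata6, a transcription factor that specifies primitive endoderm, stood at 13.31 ± 0.07 in Cripto with SB431542 and 13.25 ± 0.05 in SB431542 (SD, n = 5 each).

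With the kinase inhibitor present, most measured genes differed between cells with and without Cripto. Of 9951 genes, 6535 passed the test (65.7%): 3172 rose (31.9%) and 3363 fell (33.8%). At least 2-fold changes were seen in 2502 genes (25.1%), of which 1151 rose (11.6%) and 1351 fell (13.6%). In 4208 genes (42.3%) no array of one group overlapped the other, 2059 of them higher (20.7%) and 2149 lower (21.6%). The median change over all genes was -0.01 and the median size of a change, in either direction, was 0.56. Quantile normalisation, used here, cannot show a shift of most genes in 1 direction. With arrays centred on their medians instead, all genes moved by a median of 0.31 and the split became 4295 higher and 1911 lower. There some changes differed by over 1.5 times from the values given further on. Smaller falls included Gdf1 (-0.80), Sqle (-0.75), Hspg2 (-0.74), Tgfbr2 (-0.70), Sesn1 (-0.62), Mvd (-0.61), Cdk2 (-0.52) and Pou5f1 (-0.52). Larger rises included Furin (1.21), Gsn (1.06), Src (0.96), Vim (0.90) and Pmvk (0.87). Fits on the separate sets of BeadChips called 5370 genes (chips 1 to 4) and 5347 genes (chips 5 to 7). Of these, 4332 were called in both with the same sign and 1 with opposite signs.

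The largest rises included Cpn1, Ddc, Gpc3, Cldn6 and Spink1. Cpn1, the catalytic chain of the plasma peptidase carboxypeptidase N, had values of 12.46, 12.26, 12.14, 12.39 and 12.19 in Cripto with SB431542, against 6.20, 6.58, 6.52, 6.88 and 5.53 in SB431542. This is a change of 6.0 ± 0.20 (SE; 64.15-fold, limma adjusted p = 5.88e-16). Ddc, the decarboxylase that makes dopamine and serotonin, had 11.48, 11.24, 11.39, 11.03 and 11.22 in Cripto with SB431542, against 6.17, 5.80, 5.65, 5.42 and 5.67 in SB431542, where 2 of 5 arrays detected it. The groups lay far apart in both genes, with an SD among SB431542 arrays of 0.51 for Cpn1 and 0.28 for Ddc. Gpc3, a cell-surface glypican, had 11.01, 11.08, 11.19, 11.43 and 11.46 in Cripto with SB431542, against 5.52, 5.96, 5.82, 6.72 and 5.39 in SB431542 (42.68-fold). Cldn6, a tight-junction claudin of embryonic epithelia, had 12.16, 12.01, 12.03, 12.13 and 12.17 in Cripto with SB431542, against 6.80, 6.59, 6.38, 6.87 and 6.84 in SB431542 (41.88-fold). Spink1, a secreted trypsin inhibitor, was already expressed in SB431542 (7.52 to 8.10) and reached 12.45 to 13.00 in Cripto with SB431542 (31.46-fold).

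The other genes among the 12 largest rises covered several functions. Phlda2, an imprinted regulator of placental growth, rose 41.37-fold, and Tnnc1, the troponin C of slow and cardiac muscle, rose 39.2-fold. Car4, a carbonic anhydrase anchored to the membrane, had 11.65, 11.12, 11.14, 11.10 and 11.11 in Cripto with SB431542, against 6.33, 6.69, 6.58, 6.87 and 4.97 in SB431542 (32.87-fold). Where only some arrays of a group detected a gene, its fold rests in part on values at the detection floor. Of the 5 SB431542 arrays, 4 detected Cpn1, Phlda2 and Car4, 3 Gpc3 and 1 Spsb1, a substrate adaptor of a ubiquitin ligase whose fitted rise was 33.2-fold. Tns4, a tensin of focal adhesions, rose 32.03-fold. For a gene detected on no array of a group, the fold is a lower bound against the detection floor. Rnf130, a RING-finger protein, was so at least 37.54-fold higher in Cripto with SB431542, with 10.39 to 11.42 there and 4.96 to 5.69 in SB431542. Lypd10 was at least 27.17-fold higher. The limma adjusted p over these rises was 2.65e-10 or lower.

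**Figure D1:**
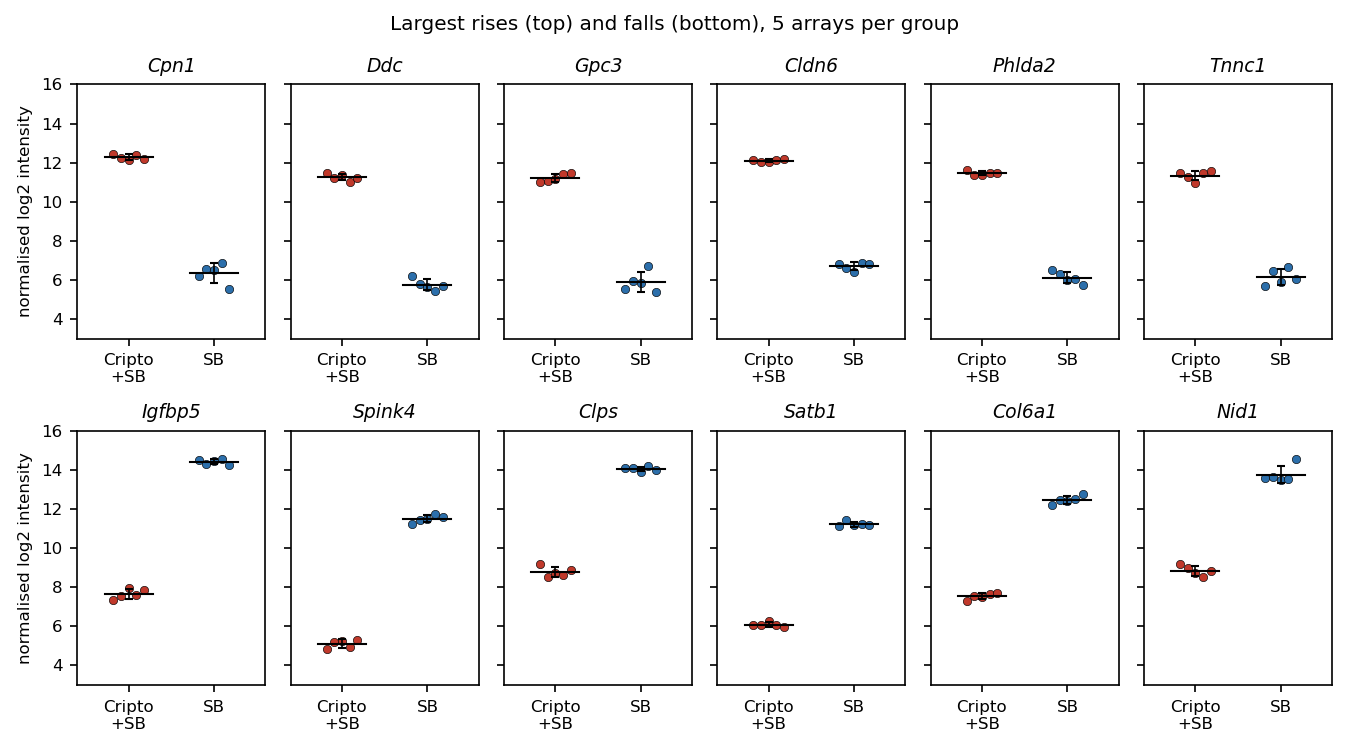
Normalised log2 intensity of 6 genes with large rises and 6 with large falls on each array of Cripto with SB431542 and of SB431542 (n = 5 each). Points are arrays, bars the means and error bars the SD. No array of one group overlaps the other in any of the 12 genes, and Igfbp5 lies at 7.33 to 7.95 in Cripto with SB431542 against 14.26 to 14.54 in SB431542.

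The largest falls included Igfbp5, Spink4, Clps, Satb1, Col6a1 and Nid1. Igfbp5, which binds insulin-like growth factors, had 7.33, 7.57, 7.95, 7.62 and 7.88 in Cripto with SB431542, against 14.50, 14.31, 14.48, 14.54 and 14.26 in SB431542. It fell by 6.78 ± 0.32 (SE; 110.1-fold lower, limma adjusted p = 1.5e-13). Nid1, nidogen, which links laminin to type IV collagen in basement membranes, had 9.18, 8.99, 8.72, 8.52 and 8.82 in Cripto with SB431542, against 13.60, 13.62, 13.49, 13.57 and 14.55 in SB431542 (31.81-fold lower). Col6a1, a chain of type VI collagen, was 34.32-fold lower. In all 3 of these genes every array of Cripto with SB431542 lay below every SB431542 array.

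Clps, colipase, the cofactor of pancreatic lipase, had 9.20, 8.54, 8.74, 8.64 and 8.88 in Cripto with SB431542, against 14.08, 14.11, 13.88, 14.21 and 13.99 in SB431542. Spink4, a secreted peptidase inhibitor, was detected on no array of Cripto with SB431542 and was at least 51.19-fold lower there. Satb1, a chromatin organiser, had 6.07, 6.06, 6.28, 6.06 and 5.97 in Cripto with SB431542, against 11.14, 11.42, 11.17, 11.21 and 11.17 in SB431542. Sox5, a SOX transcription factor, was detected on 1 of 5 arrays of Cripto with SB431542, and its fitted fold, 28.51-fold lower, rests on values at the floor there. Cep112, a centrosomal protein, was 24.83-fold lower, and Mgst2, a microsomal glutathione transferase, 16.64-fold. Tmem176b, the adhesion protein Sdk1 and the kinase Tnik were detected on no array of Cripto with SB431542, and were lower by at least 25.96-fold, 18.86-fold and 15.61-fold.

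Promoters of 4 genes with large changes are shown so that the sequences of 2 rises (Cldn6, Spint1) and 2 falls (Igfbp5, Nid1) can be read beside their values. Each is the 250 bases before the gene's start, 5′ to 3′ on the gene's strand, from RefSeq on GRCm38.p6. In each window capitals mark 1 match, chosen for show, to one of the 8 motifs searched on both strands, in the order CRE, ETS, TEAD and TEAD. Matches to other motifs, such as the short Smad box, are left in lower case. The windows are chr17:23679115-23679364 on the plus strand (Cldn6), chr2:119237110-119237359 on the plus strand (Spint1), chr1:72874866-72875115 on the minus strand (Igfbp5) and chr13:13437352-13437601 on the plus strand (Nid1).
Cldn6: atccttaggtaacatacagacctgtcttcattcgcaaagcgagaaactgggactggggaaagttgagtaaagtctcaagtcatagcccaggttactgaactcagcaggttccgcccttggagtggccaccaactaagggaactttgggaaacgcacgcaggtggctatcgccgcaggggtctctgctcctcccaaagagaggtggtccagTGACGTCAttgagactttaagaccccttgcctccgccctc
Spint1: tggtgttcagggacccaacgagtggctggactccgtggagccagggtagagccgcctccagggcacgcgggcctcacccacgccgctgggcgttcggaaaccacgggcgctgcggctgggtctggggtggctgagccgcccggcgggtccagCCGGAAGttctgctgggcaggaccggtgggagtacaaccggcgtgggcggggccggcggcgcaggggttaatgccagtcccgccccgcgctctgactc
Igfbp5: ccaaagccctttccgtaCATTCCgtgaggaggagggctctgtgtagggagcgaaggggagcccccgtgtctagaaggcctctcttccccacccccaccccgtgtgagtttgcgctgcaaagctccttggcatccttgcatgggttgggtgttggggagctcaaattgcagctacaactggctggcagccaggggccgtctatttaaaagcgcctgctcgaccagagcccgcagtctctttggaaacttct
Nid1: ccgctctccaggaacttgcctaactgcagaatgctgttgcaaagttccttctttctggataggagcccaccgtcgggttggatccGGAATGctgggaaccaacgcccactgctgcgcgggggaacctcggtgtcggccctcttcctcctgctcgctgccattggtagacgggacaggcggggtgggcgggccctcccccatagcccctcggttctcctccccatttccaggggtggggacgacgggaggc
The first base of the capitals lies at -40 in Cldn6 (TGACGTCA), -98 in Spint1 (CCGGAAG), -233 in Igfbp5 (CATTCC) and -165 in Nid1, where CATTCC is read on the opposite strand.

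A promoter window was matched for 8134 of the 9951 genes, and motifs were counted in windows of 300 bases (250 before and 50 after the start). The TEAD letters CATTCC stood in 15.7% of genes that rose at least 2-fold, 15.6% of genes that fell at least 2-fold, 14.4% of genes that did not pass the test, 14.6% of all genes matched and 14.7% of all windows in the table. The ETS letters CCGGAAG stood in 17.7% of the 2-fold rises, 14.3% of the 2-fold falls, 21.2% of genes that did not pass and 20.9% of all genes matched. The CRE letters TGACGTCA stood in 4%, 2.03%, 3.86% and 3.74% of the same classes. The Smad box CAGAC stood in 54.3%, 53.8%, 51.6% and 52.4%, and the AP-1 letters TGANTCA in 7.03%, 7.28%, 5.54% and 5.82%. The E-box CACGTG stood in 13.5%, 10.4%, 12.5% and 12.1%, the FoxO letters GTAAACA in 3.46%, 1.84%, 3.82% and 3.21%, and the GATA letters AGATAA in 8.11%, 8.29%, 6.75% and 7.46%. Letters of 1 motif can overlap those of another, and these shares are a description without a test.

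The response to Cripto was set beside that measured without the inhibitor, Cripto minus Media, which shares no array with it. There 6420 genes passed the test (64.5%), with 3185 higher (32%), 3235 lower (32.5%) and 2383 changed at least 2-fold (23.9%). Across the 9951 genes the changes with and without the inhibitor had a Pearson correlation of 0.936, a description across genes, which are not independent replicates and share the BeadChips. Of the genes called with the inhibitor, 5384 were called without it in the same direction (2654 higher and 2730 lower), which is 82.4% of the calls with the inhibitor and 83.9% of those without. A further 21 genes were called in opposite directions. Of the 2383 genes changed at least 2-fold in Cripto against Media, 2370 had the same sign in its presence and 2327 were also called. The median ratio of the change with the inhibitor to that without it was 0.96 over these 2383 genes (quartiles 0.814 and 1.09). Taken the other way, over the 2502 genes with a 2-fold change under the inhibitor, the ratio of the change without the inhibitor to that with it had a median of 0.933.

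**Figure D2:**
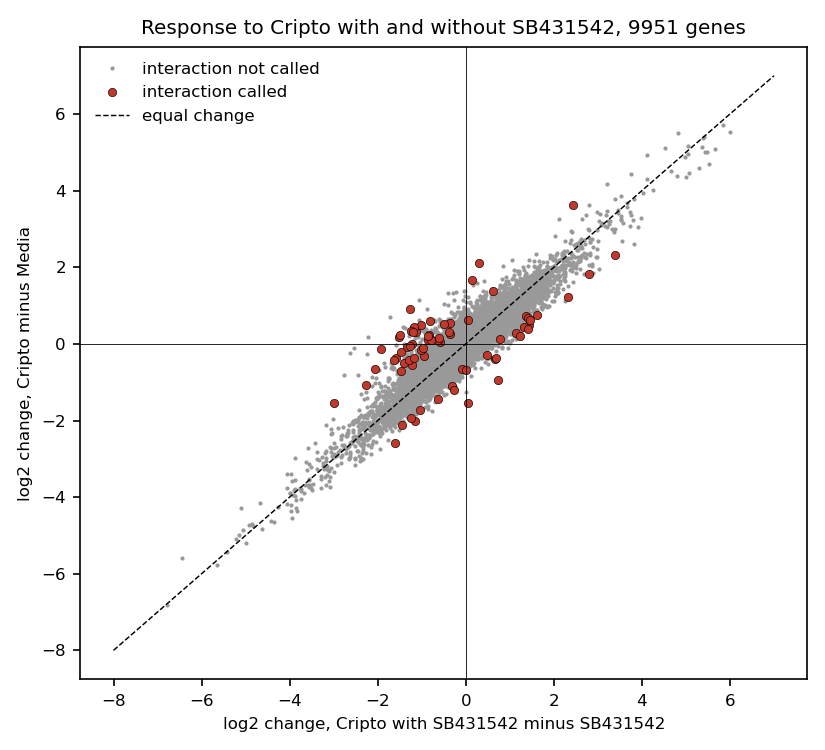
Change with Cripto in the presence of SB431542 (x axis, Cripto with SB431542 minus SB431542, log2) against the change with Cripto in its absence (y axis, Cripto minus Media, log2) for 9951 genes, with 73 genes whose changes differed between the settings in red and a dashed line of equal change. Of the 2383 genes changed at least 2-fold in the absence of SB431542, 2370 lie on the same side of 0 on both axes.

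Genes of the Nodal pathway itself were, on balance, lower. For this and every later list, the shares over all 9951 genes were 31.9% higher and 33.8% lower. The lists were chosen with earlier results of these data known, so their counts are a description without a test. Of 21 listed ligands, receptors, proprotein convertases and Smads, 12 were measured, 4 rose and 7 fell, with a median change of -0.68 (-0.46 with genes below detection at their bound; -0.25 with 4 rises and 5 falls under median centring). Among ligands and co-receptors, Gdf1, a Nodal-related ligand, had 8.28, 8.22, 8.17, 8.48 and 8.38 in Cripto with SB431542, against 9.68, 9.66, 9.66, 9.56 and 9.51 in SB431542 (fell by 1.26 ± 0.13). Cfc1, the EGF-CFC relative of Cripto, had 8.21, 7.44, 7.71, 5.07 and 5.23 in Cripto with SB431542, against 11.08, 10.51, 10.08, 7.01 and 7.25 in SB431542 (fell by 2.41 ± 0.22). The groups of Cfc1 overlap because arrays of chips 5 to 7 read lower in both, and the difference was present within each set of BeadChips. Nodal, Gdf3, Inhba, Acvr1c (Alk7), Foxh1 and Tdgf1, the gene of Cripto, did not pass the detection filter.

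Receptors and processing enzymes moved in both directions. Acvr1b, which encodes Alk4, rose by 1.35 ± 0.21, and the convertases Pcsk6 and Furin, which cleave the Nodal precursor, rose by 1.28 ± 0.15 and 0.75 ± 0.13. Tgfbr3 (betaglycan) fell by 1.41 ± 0.19, Tgfbr1 (Alk5) by 0.71 and Smad3 by 0.73 ± 0.12. The calls of Tgfbr1 and Smad3 were lost under median centring (limma adjusted p = 0.415 and 0.16). Tgfbr2 changed by -1.15 on its brightest probe, and its other detected probe moved the opposite way. Smad2 changed by -0.20 (limma adjusted p = 0.195).

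Smad2/3 target genes had no common direction. Of 18 listed, 9 were measured: 4 rose and 3 fell, with a median of 0.07. Lefty1, Lefty2, Smad7, Nodal, Cer1, Bambi and Gsc did not pass the detection filter. Ccn1, a matricellular protein, had 10.72, 10.87, 10.86, 9.84 and 9.94 in Cripto with SB431542, against 8.27, 8.40, 8.05, 7.46 and 7.47 in SB431542 (rose by 2.59 ± 0.21). Pdgfa, a ligand of the PDGF receptor alpha, rose by 1.73 ± 0.15. Skil (SnoN), an inhibitor of Smads that their signalling induces, had 8.58, 8.34, 8.65, 8.86 and 8.83 in Cripto with SB431542, against 7.05, 7.35, 7.57, 7.61 and 7.45 in SB431542 (rose by 1.33 ± 0.17). Pmepa1, a feedback inhibitor of the pathway, fell by 0.98 ± 0.17, and the related inhibitor Ski changed by 0.07, which did not pass the test (0.51 and passing under median centring).

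Of 14 listed partners and effectors of Cripto outside Alk4, 11 were measured, 4 rose and 4 fell (median 0.11). Gpc1, glypican-1, through which Cripto is described to reach Src, had 8.50, 8.17, 7.87, 8.07 and 8.19 in Cripto with SB431542, against 6.14, 6.48, 6.37, 6.43 and 6.16 in SB431542 (rose by 1.95 ± 0.16). Src rose by 0.51 ± 0.11 (limma adjusted p = 0.0826 on chips 5 to 7). Notch1 rose by 2.25 ± 0.36. Pik3r1, the regulatory subunit of PI3K, fell by 1.71 ± 0.16, and Notch4 was at least 1.935-fold lower. Hspa5, the chaperone Grp78 that binds Cripto at the cell surface, fell by 0.54, a call that was lost without the BeadChip term (limma adjusted p = 0.817) and under median centring (0.444).

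Feedback genes of ERK signalling were mostly higher. These genes, induced by Ras/ERK activity, are commonly read as its transcriptional output. ERK activity was not measured here, and the cause of their changes was not tested. Of 16 listed, 12 were measured, 9 rose and 2 fell (median 1.14). Without the inhibitor 9 rose and 1 fell in Cripto against Media. On chips 1 to 4 the counts were 8 and 2, and on chips 5 to 7 they were 9 and 0. Dusp6, an ERK phosphatase, had 8.99, 8.67, 8.75, 8.79 and 8.97 in Cripto with SB431542, against 6.60, 6.92, 6.83, 7.10 and 7.27 in SB431542 (rose by 1.88 ± 0.13, limma adjusted p = 4.95e-11). Dusp4, a nuclear phosphatase of the same family, had 8.44, 8.71, 8.89, 8.67 and 8.54 in Cripto with SB431542, against 5.26, 5.69, 5.69, 4.85 and 5.66 in SB431542, where 1 array detected it (rose by 3.10 ± 0.16). The groups of both phosphatases are separate.

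The ETS factors Etv4 and Etv5 were at least 2.6-fold and at least 3.584-fold higher, and Ier3 and Phlda1 rose by 1.13 ± 0.17 and 1.23 ± 0.11. Il17rd (Sef), an inhibitor of FGF signalling, fell by 0.78 ± 0.15, a call lost under median centring (-0.42, limma adjusted p = 0.0708), without the BeadChip term (0.0671) and on chips 5 to 7 (0.0638). Of 13 listed immediate early genes, which transcribe soon after a stimulus, 9 were measured, 5 rose and 1 fell (median 0.76). Junb had 9.46, 9.10, 9.11, 9.39 and 9.26 in Cripto with SB431542, against 7.62, 7.86, 7.61, 8.36 and 7.95 in SB431542. Fos rose by 1.02 ± 0.17 and Atf3 by 2.44 ± 0.19, and Klf4 fell by 1.55 ± 0.10. Egr1 changed by 0.22 and Jun by -0.24, neither past the test. Egr1 passed under median centring (0.70, limma adjusted p = 0.0012) and with array brightness in the fit (0.56, limma adjusted p = 0.0271).

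Genes of the visceral endoderm were mostly higher and genes of the parietal endoderm mostly lower. Of 26 visceral genes, 19 were measured, 11 rose and 4 fell, with a median of 1.35 (1.19 with bounds). Their summed linear levels overlapped, at 36630 to 43250 in Cripto with SB431542 and 36000 to 45310 in SB431542. Apoe, an apolipoprotein, had 10.08, 9.97, 9.63, 10.01 and 9.98 in Cripto with SB431542, against 6.0, 7.26, 6.81, 7.04 and 6.77 in SB431542 (rose by 3.02 ± 0.21). The endocytic receptors that take up maternal nutrients moved the same way. Lrp2 (megalin) had 10.39, 9.96, 10.13, 10.19 and 10.33 in Cripto with SB431542, against 7.95, 7.66, 7.93, 7.77 and 8.56 in SB431542, its partner Amn rose by 2.49 ± 0.21, and Cubn (cubilin) by 2.04 ± 0.11. In Cubn the groups overlap, with a difference of 1.84 to 2.07 on each BeadChip that held both. Cdh1, E-cadherin, rose by 1.35 ± 0.21.

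The serum carrier proteins of the visceral endoderm were split. Apom and Rbp4 were at least 4.43-fold and at least 3.425-fold higher, with Rbp4 not past the test when array brightness was in the fit (limma adjusted p = 0.0924). Ttr, transthyretin, had 12.41, 12.24, 12.26, 11.91 and 12.01 in Cripto with SB431542, against 14.12, 13.74, 14.08, 13.80 and 13.82 in SB431542 (fell by 1.82 ± 0.17). Apoa1, Trf (transferrin) and Afp (alpha-fetoprotein) were not detected on any array of Cripto with SB431542. Apoa1 was lower by at least 7.601-fold, Trf by at least 1.92-fold and Afp by at least 1.392-fold (not past the test on chips 5 to 7, limma adjusted p = 0.113). The endocytic receptors and these carriers therefore did not share 1 direction.

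All 20 parietal genes were measured, 2 rose and 14 fell (median -0.49, and 5 rises and 12 falls under median centring). Besides Nid1, Sox7, a transcription factor of parietal endoderm, had 10.94, 10.91, 10.82, 10.79 and 11.05 in Cripto with SB431542, against 12.63, 12.44, 12.61, 12.88 and 13.58 in SB431542. This is the brightest probe of Sox7, and 1 of its 2 other detected probes moved the opposite way. Thbd (thrombomodulin) fell by 1.97 ± 0.13. Stra6, the receptor of retinol-binding protein, fell by 1.95 ± 0.14. Hspg2 (perlecan) fell by 1.12 ± 0.26, without a call when array brightness was in the fit (limma adjusted p = 0.129). Sparc, a matrix glycoprotein abundant in Reichert's membrane, fell by 0.85 ± 0.17. Lama1 and Col4a1, chains of laminin and type IV collagen, fell by 0.41 ± 0.09 and 0.50 ± 0.09, and neither passed on chips 5 to 7 (limma adjusted p = 0.0713 and 0.102). Lama1 was the brightest gene on 4 of the 5 SB431542 arrays, where quantile normalisation gives a fixed top value of 15.54, so its change is compressed. Nid2, the second nidogen, rose by 1.33 ± 0.11, opposite to Nid1.

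**Figure D3:**
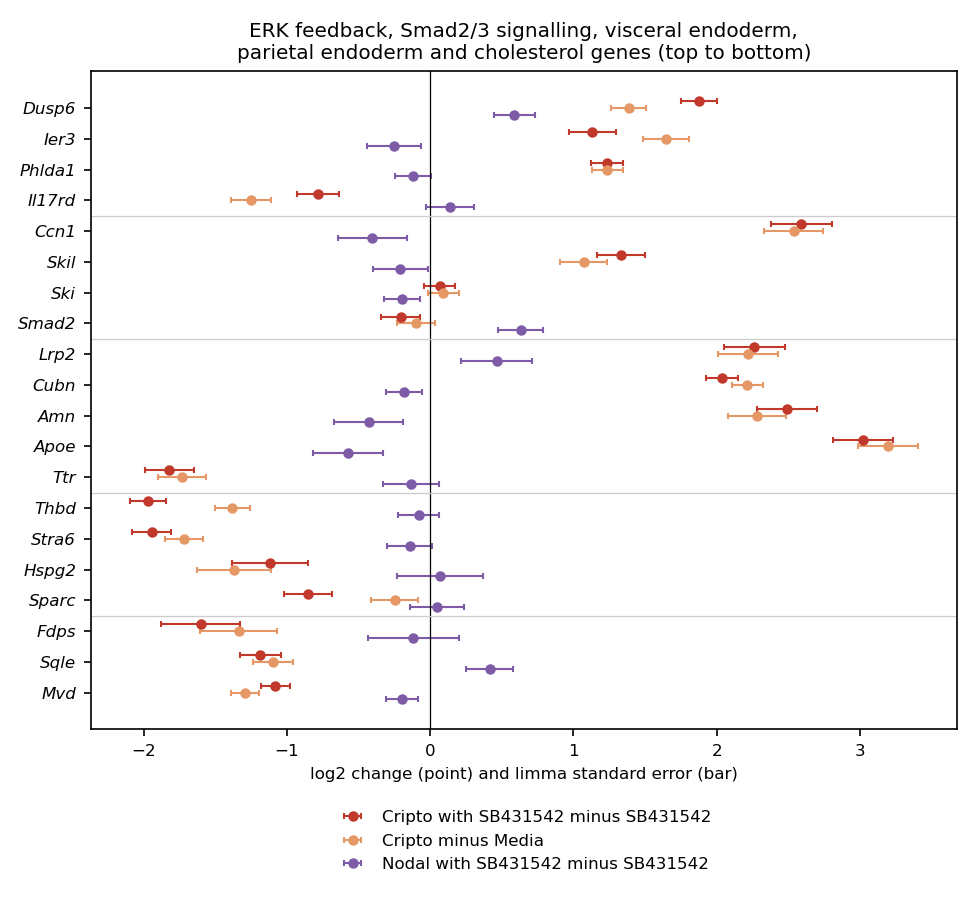
Change (log2, points) with limma's SE (bars) of selected genes in 3 comparisons: Cripto with SB431542 minus SB431542, Cripto minus Media, and Nodal with SB431542 minus SB431542. From top to bottom the lines separate ERK feedback genes, Smad genes, visceral endoderm genes, parietal endoderm genes and cholesterol synthesis genes. Dusp6, at 1.88 under the inhibitor and 1.39 without it, is one of the genes in which both Cripto comparisons lie on the same side of 0.

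Of 16 transcription factors listed under primitive endoderm, 12 were measured, 4 rose and 6 fell (median -0.13, which becomes 0.29 with 6 rises and 2 falls under median centring). The list is broad, and holds Foxq1, Klf6, Tcf7l2, Nr2f1 and Nr2f2 beside Gata4, Gata6, Sox7 and Sox17. Foxq1 had 13.03, 13.00, 13.13, 13.37 and 13.31 in Cripto with SB431542, against 11.25, 11.45, 11.52, 11.68 and 11.66 in SB431542. Klf6 rose by 1.55 ± 0.16 and Hhex by 1.0 ± 0.22 (not past the test on chips 5 to 7, limma adjusted p = 0.0864). Gata6 changed by 0.07 ± 0.09 (limma adjusted p = 0.484, and 0.46 past the test under median centring). Sox17 changed by 0.21 (limma adjusted p = 0.0569), and by 0.58 under median centring and 0.41 on chips 5 to 7, both past the test (limma adjusted p = 0.00281 and 0.0327). Gata4 changed by -0.44 (limma adjusted p = 0.0474), a call lost in most alternatives: it was -0.01 under median centring (limma adjusted p = 0.984), and p was 0.468 without the BeadChip term, 0.077 without the detection filter and 0.0539 on the authors' deposited values. Of 12 anterior visceral endoderm genes, 4 were measured, 1 rose and 2 fell. Of the 10 XEN identity genes, 0 rose and 7 fell (median -0.42), and under median centring 2 rose and 4 fell (median -0.14). Pdgfra fell by 0.72 ± 0.14, a call lost under median centring (limma adjusted p = 0.221).

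Genes of epithelial junctions and cytokeratins were mostly higher. Of 18 listed, 11 were measured, 9 rose and 1 fell, with a median of 1.49 (1.0 with bounds), and 9 rose in Cripto against Media too. Spint1, a membrane inhibitor of matriptase, had 9.79, 9.94, 9.86, 10.04 and 10.07 in Cripto with SB431542, against 4.74, 5.32, 5.28, 5.67 and 4.96 in SB431542, where it was not detected (at least 18.09-fold higher). Krt18, a keratin of simple epithelia, had 12.97, 12.99, 13.05, 12.97 and 12.83 in Cripto with SB431542, against 11.35, 11.43, 11.35, 11.35 and 11.29 in SB431542. Its partner Krt8 rose by 0.83 ± 0.09, and Krt19 by 1.83 ± 0.13. Epcam was at least 1.172-fold higher and was detected on 3 of 5 arrays of Cripto with SB431542, a call lost without the BeadChip term (limma adjusted p = 0.101) and on chips 5 to 7 (0.287).

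Of 17 mesenchymal genes, 7 were measured, 2 rose and 4 fell (median -0.78, -0.07 with bounds). Zeb1, a repressor of E-cadherin, had 8.02, 8.52, 8.27, 8.21 and 8.73 in Cripto with SB431542, against 9.98, 9.91, 9.90, 10.10 and 10.67 in SB431542. Fn1, fibronectin, fell by 1.55 ± 0.21, and Vim, vimentin, rose by 0.51. Of 19 basement membrane and integrin genes, 18 were measured, 4 rose and 11 fell (median -0.49). Itga3, the alpha chain of a laminin receptor, had 11.45, 11.38, 11.31, 11.15 and 11.05 in Cripto with SB431542, against 8.71, 8.92, 8.96, 8.67 and 8.25 in SB431542. Lama5, a laminin chain that this receptor binds, rose by 1.58 ± 0.22. Itga6 and Itgb5 fell by 1.54 ± 0.18 and 1.55 ± 0.11.

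**Figure D4:**
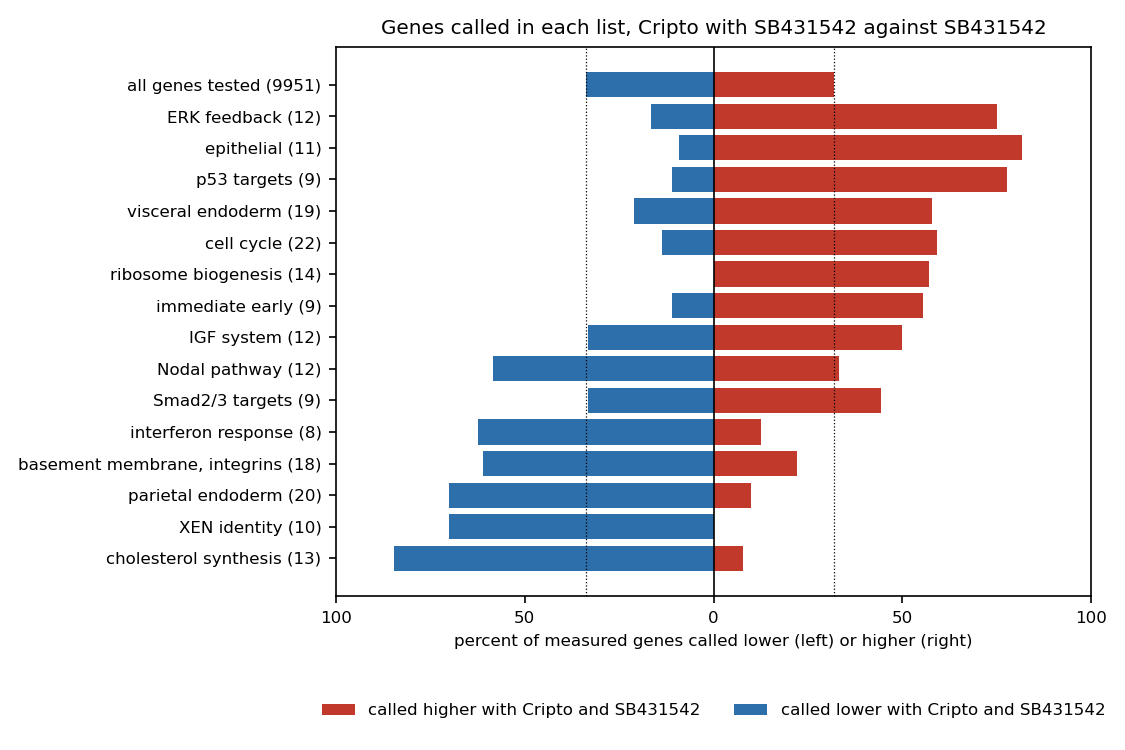
Percent of measured genes that rose (bars to the right) and fell (bars to the left) in Cripto with SB431542 relative to SB431542, for all 9951 genes and 15 gene lists. Dotted lines give the shares over all genes, 31.9% higher and 33.8% lower. The number of measured genes differs between lists.

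Cell cycle genes were mostly higher. Of 28 listed, 22 were measured, 13 rose and 3 fell (median 0.63). Ccnd2, a D-type cyclin, had 10.73, 11.08, 11.40, 11.38 and 11.49 in Cripto with SB431542, against 8.29, 8.48, 8.71, 8.90 and 8.75 in SB431542. Ccne1, cyclin E, rose by 2.15 ± 0.17, and the mitotic kinases Cdk1 and Aurka rose by 1.54 ± 0.16 and 1.49 ± 0.12. The inhibitor Cdkn1a (p21) rose by 1.07 ± 0.10, while Cdkn2b (p15), a known target of TGF-beta signalling, had 8.51, 8.15, 8.36, 7.92 and 7.87 in Cripto with SB431542, against 9.91, 9.82, 9.71, 9.45 and 9.44 in SB431542. Proliferation was not measured, so these are transcript levels.

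Of 12 p53 target genes, 9 were measured, 7 rose and 1 fell (median 0.97). Phlda3, an inhibitor of Akt, had 12.15, 11.73, 11.92, 11.94 and 12.10 in Cripto with SB431542, against 9.94, 10.13, 10.04, 10.34 and 10.26 in SB431542. Plk2 rose by 2.03 ± 0.22 and Mdm2, the ubiquitin ligase of p53, by 0.97 ± 0.11, and Sesn1 fell by 1.06 ± 0.11. Of 15 genes of ribosome biogenesis and Myc targets, 14 were measured, 8 rose and 0 fell (median 0.59). Nop58, a core protein of box C/D particles, had 12.45, 12.23, 12.29, 12.45 and 12.53 in Cripto with SB431542, against 10.36, 10.27, 10.49, 10.45 and 10.87 in SB431542. Odc1, the first enzyme of polyamine synthesis, rose by 1.62 ± 0.09.

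Cholesterol synthesis genes were mostly lower. Of 18 listed, 13 were measured, 1 rose and 11 fell, with a median of -1.08 (-0.70 with bounds). Under median centring 1 rose and 7 fell (median -0.61). Sqle, squalene epoxidase, and Mvd, a decarboxylase of the mevalonate branch, fell by 1.19 ± 0.14 and 1.08 ± 0.10. Fdps, which makes farnesyl diphosphate, had 9.71, 12.22, 12.29, 12.55 and 12.37 in Cripto with SB431542, against 13.20, 13.53, 13.63, 13.82 and 13.57 in SB431542 (fell by 1.60 ± 0.28). Its first array of Cripto with SB431542 lies far below the others, and without it the gene fell by 1.22. Pmvk, a kinase of the same branch, rose by 0.40 ± 0.10. Of 13 interferon-response genes, 8 were measured, 1 rose and 5 fell (median -0.85). Ifitm3 rose by 3.53 ± 0.20, and Irf9, a subunit of the interferon-activated ISGF3 factor, fell by 1.52 ± 0.14.

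Genes of growth factor systems moved in both directions, beside 31.9% of all 9951 genes that rose and 33.8% that fell. Of 17 genes of the IGF system, 12 were measured, 6 rose and 4 fell (median 0.05). Igf1r, the receptor, had 6.84, 8.53, 8.03, 8.53 and 8.17 in Cripto with SB431542, against 4.45, 5.27, 5.33, 6.77 and 4.89 in SB431542, where 1 array detected it. Its ligand Igf1 had 8.56, 8.31, 8.44, 8.91 and 8.70 in Cripto with SB431542, against 10.28, 10.48, 10.72, 11.03 and 10.61 in SB431542. Igf2 was at least 4.359-fold lower, and Insr, the insulin receptor, fell by 1.44 ± 0.20. Grb10, an imprinted adaptor that inhibits both receptors, was at least 19.73-fold higher. Ligands thus fell where the IGF receptor rose.

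Of 17 growth factor receptors, 12 were measured, 5 rose and 3 fell (median 0.17), while 65.7% of all genes passed the test. Fgfr2 had 8.20, 8.51, 8.61, 8.38 and 8.87 in Cripto with SB431542, against 4.86, 4.61, 5.15, 5.18 and 5.41 in SB431542, where it was not detected (at least 6.736-fold higher). Flt1, a VEGF receptor, had 10.81, 10.96, 10.83, 11.00 and 10.98 in Cripto with SB431542, against 7.99, 8.09, 8.32, 8.49 and 7.84 in SB431542. Of 9 BMP target genes, 4 were measured, 3 rose and 0 fell. Id1, an inhibitor of bHLH factors, had 9.34, 8.71, 8.87, 8.93 and 8.96 in Cripto with SB431542, against 7.06, 6.60, 6.85, 7.31 and 7.07 in SB431542, and Id3 rose by 1.38 ± 0.18. Of 11 Wnt target genes, 2 were measured, 0 rose and 1 fell. That gene, Axin2, a feedback inhibitor of Wnt signalling, had 5.31, 4.98, 5.44, 4.79 and 5.14 in Cripto with SB431542, against 8.50, 8.27, 8.36, 8.81 and 8.27 in SB431542, and was at least 6.08-fold lower.

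Whether the response to Cripto differed with the inhibitor was tested gene by gene, as the change with Cripto in the presence of SB431542 minus that in its absence. Of 9951 genes, 73 passed (0.734%), 28 with a more positive change under the inhibitor (0.281%) and 45 with a more negative one (0.452%). At an unadjusted p under 0.05 there were 1492. For 82.6% of genes the 95% interval of the difference lay within 2-fold. The count depended on single arrays, from 9 genes without Media replicate 4 to 216 without replicate 2 of Cripto with SB431542, and 2 passed under median centring. Fits on chips 1 to 4 and on chips 5 to 7 each called 0 genes (limma; 1005 and 958 at an unadjusted p under 0.05). A set of 9 genes, Calr3, Lrrc38, Ppp1r12a, Prrc2c, Rtf1, Sft2d3, Srp54a, Taf15 and Tor1aip2, passed without each of the 20 arrays in turn. They were singled out after the fits were made. Chip 7 held only replicate 5 of Cripto with SB431542 and replicate 5 of SB431542. With BeadChip in the fit, leaving out either gave the same count (15), so these 2 fits are not separate checks.

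Taf15, an RNA-binding protein of the FET family, had the largest called difference with a positive sign of the 73, 1.67 ± 0.21 (SE, limma adjusted p = 0.000475). It had 9.43, 9.01, 9.45, 10.01 and 9.96 in Cripto with SB431542, against 8.33, 8.52, 8.76, 9.19 and 9.43 in SB431542. Without the inhibitor it had 7.92, 7.58, 8.14, 8.53 and 8.26 in Cripto, against 8.71, 8.62, 8.72, 9.38 and 9.44 in Media. The change with Cripto was thus positive with the inhibitor and negative without it. Hbegf, a ligand of the EGF receptor, differed by -1.80 ± 0.42 (limma adjusted p = 0.048). It had 8.03, 8.75, 7.57, 8.04 and 8.05 in Cripto with SB431542, against 7.45, 7.39, 7.29, 7.54 and 8.01 in SB431542. In the absence of the inhibitor it had 8.28, 10.37, 9.61, 9.98 and 9.94 in Cripto, against 7.16, 7.46, 7.25, 8.05 and 8.05 in Media. The change with Cripto was 0.31 under the inhibitor (limma adjusted p = 0.369) and 2.11 without it.

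Taf15, Hbegf and the following 8 genes are the 5 largest called differences of each sign. Srp54a, a subunit of the signal recognition particle, rose by 2.31 under the inhibitor and by 1.21 without it, a difference of 1.10 ± 0.20. Gsn, the actin-severing protein gelsolin, changed by 0.68 under the inhibitor and by -0.38 without it. Prrc2c differed by 1.61 ± 0.26. Its change under the inhibitor was 0.06, not past the test, and 3 of its 4 other detected probes had the opposite sign to that change. Other probes were compared only for the change under the inhibitor, not for the difference. Aptx, a DNA-end-processing protein, was detected on 2 arrays of Cripto with SB431542, on 0 of SB431542, 0 of Cripto and 1 of Media, so its difference has no measured size. On the negative side, Tmem216, a protein of the ciliary transition zone, changed by -1.92 under the inhibitor and by -0.14 without it. Snrpd1, a core spliceosomal protein, changed by -1.49 under the inhibitor and by 0.23 without it. Capza1, an actin-capping subunit, differed by -2.16 ± 0.45. Ddx6, an RNA helicase of P-bodies, differed by -1.70 ± 0.38. Its change under the inhibitor was -1.51, and all 3 of its other detected probes had the opposite sign to that change.

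Of the 280 measured genes in the lists, 3 differed between the settings, beside 0.734% of all genes. None of the 3 is in the set of 9 genes that passed without each array in turn. Atf3 changed by 2.44 under the inhibitor and by 3.63 without it, and Cdkn2b by -1.46 under the inhibitor and by -2.11 without it. Cdk2, an S-phase kinase, changed by -0.95 under the inhibitor and by -0.32 without it. Socs3 and Nog are in no list and were chosen after their values were seen. Socs3, an inhibitor of cytokine signalling, changed by 1.61 under the inhibitor and by 0.75 without it. Nog, the BMP antagonist noggin, changed by 1.42 under the inhibitor and by 0.68 without it.

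**Figure D5:**
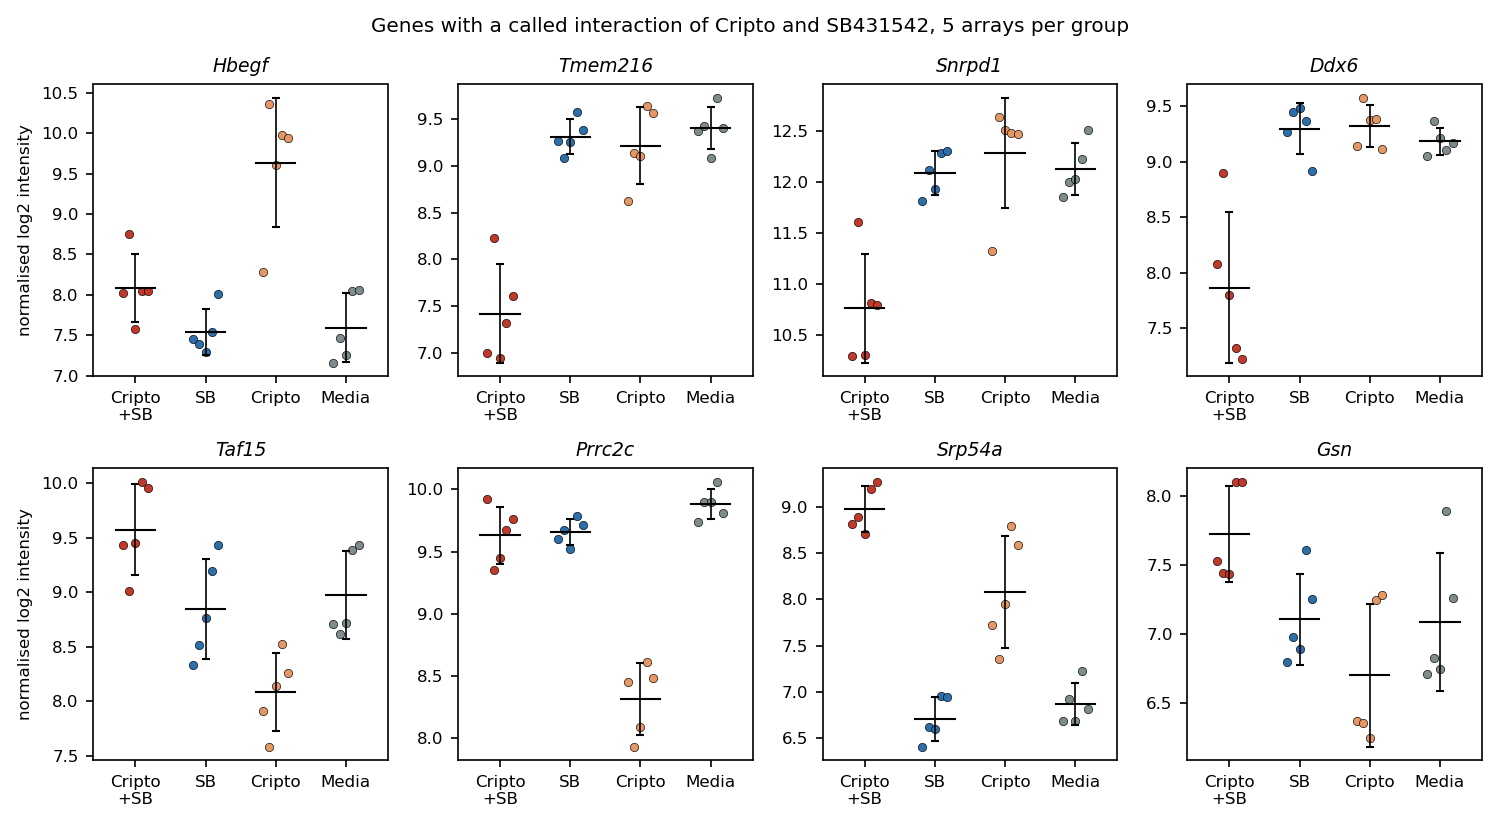
Normalised log2 intensity of 8 genes whose change with Cripto differed with and without SB431542, on each array of Cripto with SB431542, SB431542, Cripto and Media (n = 5 each). Points are arrays, bars the means and error bars the SD. Hbegf in Cripto without the inhibitor reaches 8.28 to 10.37, against 7.57 to 8.75 in Cripto with SB431542.

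Cripto with SB431542 was then set against Nodal with SB431542 (3 arrays), the other ligand given under the same inhibitor. The test called 6405 genes (64.4%): 3242 were higher (32.6%) and 3163 lower (31.8%) with Cripto. Under median centring the split was 3638 higher and 2275 lower. Nodal with SB431542 against SB431542 called 399 genes (4.01%), 351 higher (3.53%) and 48 lower (0.482%). That comparison uses the same SB431542 arrays as the main one, and the doses of the proteins, 100 ng/ml Cripto and 50 ng/ml Nodal, differ. Against Nodal with SB431542, Cpn1 was higher by a fitted 6.98 ± 0.23, with 12.14 to 12.46 in Cripto with SB431542 and 5.01, 5.48 and 5.84 in Nodal with SB431542. Car4 was at least 49.12-fold higher, Lypd10 at least 30.28-fold higher, and Phlda2 and Ddc were higher by a fitted 6.01 ± 0.19 and 5.80 ± 0.16. Of the 3 Nodal with SB431542 arrays, 1 detected Cpn1, 1 Phlda2 and 2 Ddc, so these sizes rest on values at the floor. Igfbp5 differed by -6.73 ± 0.37, with 7.33 to 7.95 in Cripto with SB431542 and 14.31, 14.19 and 14.32 in Nodal with SB431542. Pmch, the precursor of melanin-concentrating hormone, was at least 25.83-fold lower and Spink4 at least 46.83-fold lower. Nid1 and Col6a1 differed by -5.90 ± 0.21 and -5.41 ± 0.37. These differences hold under the inhibitor only. Nodal without the inhibitor was not tested, but its mean was 11.95 for Cpn1 and 10.91 for Ddc. In Cripto with SB431542 these means were 12.29 and 11.27. For Igfbp5 and Col6a1 the means lay farther apart, at 9.68 and 9.67 in Nodal without the inhibitor and 7.67 and 7.55 in Cripto with SB431542. In the gene lists, the median change with Nodal and SB431542 was 0.11 for ERK feedback genes, -0.17 for visceral endoderm, 0.02 for parietal endoderm and -0.22 for epithelial genes.

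Markers of other cell types were low or mixed, and their part in the results was not tested. Of 13 epiblast markers, 5 were measured, 2 rose and 2 fell. Their summed linear level was 1876 to 3702 in Cripto with SB431542 and 1296 to 1565 in SB431542, while Nanog, Sox2, Esrrb and Fgf4 did not pass the detection filter. Pou5f1 fell by 0.79 ± 0.24 (-0.44 with array brightness in the fit, limma adjusted p = 0.229), and Tfcp2l1 rose by 1.96 ± 0.14. Of 12 trophoblast markers, 4 were measured, 3 rose and 1 fell, with a summed level of 323.9 to 458.2 in Cripto with SB431542 and 779.6 to 850.3 in SB431542. Elf5, Ascl2 and Hand1 did not pass the filter, Cdx2 was at least 2.27-fold higher, and Gata3 fell by 3.65 ± 0.14. Of 12 fibroblast markers, 3 were measured, 1 rose and 1 fell, and Col1a1, Col1a2, Col3a1 and Thy1 did not pass the filter. Their summed level, 384.3 to 712.9 in Cripto with SB431542 and 5019 to 7289 in SB431542, was carried by Col6a1. Of 8 mesendoderm markers, 1 was measured, and it fell. In bulk samples a smaller share of cells of a type and less RNA per cell cannot be told apart.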

How the data were processed

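Total RNA of XEN-eYFP cells (28 samples) was hybridised to Illumina mouseWG6v2 BeadChips, 1 array per sample. Per the file headers, the deposited tables give the mean bead intensity of each probe with its detection p-value, not normalised. The authors' processed values of the series matrix were taken as log2-like (BeadStudio and lumi, per the submitters' processing notes, without versions). Their transformation is not given in the sources used here, so they served as an alternative. Intensities were background-corrected by normexp from the detection p-values, offset by 16, quantile-normalised and log2-transformed with limma 3.58.1 in R 4.3.3 (files read with data.table, version 1.17.8). Of 45281 probes, 34885 carried 1 gene symbol, 18 several and 10378 none, from GEO's platform annotation updated through RefSeq GRCm38.p6. Probes with a detection p under 0.01 on at least 3 arrays were kept (18471), and each gene was read from its brightest probe (9951 genes). Where other detected probes of a named gene moved the opposite way, this is stated.

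limma was fitted to all 28 arrays with group and BeadChip (7) as fixed terms, tests were two-sided, and p-values were adjusted by Benjamini-Hochberg over 9951 genes. Each SE therefore pools the spread within all 6 groups, Nodal without the inhibitor included. For Igfbp5 the SD was 1.11 there, against 0.25 in Cripto with SB431542 and 0.12 in SB431542. The number of arrays limits the precision. The groups share 3 BeadChips. A gene detected on no array of a group has a bound against the lowest detected signal. The scripts were tested on simulated data. Of 433 genes in 31 lists, 280 were measured, 117 were below the filter and 36 had no named probe. The members and lists were chosen with earlier results of these data known. Named are the 12 largest rises and 12 largest falls with 1 sign on all shared BeadChips, the 5 largest changes each way of the other tests, and list members. Alternatives changed the normalisation, background, offset, filter, BeadChip term, brightness, variance model, source and arrays.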

Additional observations from a re-analysis of the deposited data

Results flagged for a closer look

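In 29 of 364 groups of 5 arrays (182 named genes), 1 array lay apart from the other 4 by Dixon's ratio above 0.71, where chance alone gives about 1 in 20. Values are normalised log2 intensities.

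Of these, 9 were replicate 1 of Cripto with SB431542. There Fdps read 9.71 against 12.22 to 12.55 in the other arrays of its group, Cdk1 10.82 against 11.72 to 12.08, Pdia4 10.2 against 11.53 to 11.98, and Ifitm3 11.68 against 12.64 to 13.00. Atf3 read 7.79, Ccnd3 12.43 and Gata3 5.2, all below the others, while Car4 at 11.65 and Pdgfa at 10.98 were above them. In replicate 2 of Cripto with SB431542, Nsdhl read 6.65 against 4.71 to 4.93 in the others and Pdgfra 11.61. In replicate 3, Apoe read 9.63, Tgfbr3 10.56 and Spry2 5.18.

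Among the SB431542 arrays, replicate 5 read high for Nid1 (14.55 against 13.49 to 13.63), Pmch (10.84), Smad2 (9.04) and Zeb1 (10.67), and low for Car4 (4.97). Replicate 4, the dimmest array, read 5.69 for Rnf130, 14.02 for Dab2, 10.1 for Aurka and 8.07 for Irs2. Lama1 read 15.48 there against 15.54 in each of the others, and Lamc1 15.38 against 15.44. At the top of the scale quantile normalisation sets these values by rank, so they are steps of rank and no measured gaps. In replicate 2, Satb1 read 11.42, Rbp4 5.33 and Cdx2 5.07, and in replicate 1 Nsdhl read 6.65.

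The change with Cripto under SB431542 minus that without it passed the test of the difference in 15 named genes. It was 1.67 for Taf15, 1.61 for Prrc2c, 1.1 for Srp54a, 1.06 for Gsn and 1.05 for Aptx, which no SB431542 or Cripto array detected, so that its size is not measured. It was -2.16 for Capza1, -1.8 for Hbegf, -1.78 for Tmem216, -1.72 for Snrpd1 and -1.7 for Ddx6. Among genes in the lists it was -1.19 for Atf3, 0.66 for Cdkn2b and -0.63 for Cdk2. It was 0.86 for Socs3 and 0.74 for Nog, which were chosen after their values were seen.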

How the results depend on the processing

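The number of genes called between Cripto with SB431542 and SB431542, 6535, was 5347 to 6698 over the alternatives and 6046 to 6515 when each array was left out in turn. Cripto with SB431542 against Nodal with SB431542 gave 6405 genes, and 5759 to 6426 when arrays were left out. The number of genes whose Cripto response differed with the inhibitor, 73, was not steady. It was 2 with median centring and 2 without the BeadChip term, 139 without background correction and 139 on the authors' deposited values, 45 without the detection filter and 43 with only the groups compared. It was 9 to 216 with arrays left out. Alternatives chosen after seeing the data gave 3 without chip 5, and 0 on chips 1 to 4 and 0 on chips 5 to 7 (limma; 1005 and 958 at an unadjusted p under 0.05), each with fewer arrays. For the other alternatives the cause was not tested. The difference in mean array signal, 318.7, was 252.1 to 367.6 with arrays left out (exact permutation p from 0.00794 to 0.0238), and the median signal differed by 23.06 (exact permutation p = 0.103). Of the values of named genes between Cripto with SB431542 and SB431542, 83 lost the call and 12 gained one. Among genes called in the main fit 1 value reversed, Foxa2, with 0.12 under median centring. The remaining 4270 were counted as unchanged. They include genes not called in the main fit whose direction changed, such as Smad2, negative in the main fit and 0.23 under median centring. Of the interaction values of named genes, 256 kept the call and 253 lost it. Quantile normalisation and signal over background limit genes near the detection floor. Called values of named genes were over 1.5 times smaller for 87 on the authors' deposited values, 57 without background correction and 17 with an offset of 50. Under median centring 11 were smaller and 9 larger by that factor. No paired analysis was possible because the labels give no replicate numbers to pair by. BeadChip, which 3 arrays of each group share, is a term of the fit, and differences within it were used instead.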

Other observations

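Other gene groups were measured between Cripto with SB431542 and SB431542, where 31.9% of all genes rose and 33.8% fell. Of 22 imprinted genes, 12 were measured, 3 rose and 6 fell (median -0.31, which becomes 0.07 under median centring). Grb10 and Phlda2, described above as large rises, are imprinted. Of 17 retinoid genes, 9 were measured, 2 rose and 3 fell. Cyp26a1, which degrades retinoic acid, had 9.18, 8.79, 8.97, 9.15 and 9.53 in Cripto with SB431542, against 5.04, 5.41, 5.22, 5.60 and 5.46 in SB431542, where it was not detected (at least 10.28-fold higher). Of 16 stress-response genes, 4 rose and 9 fell (median -0.37, and 0.04 under median centring). The chaperone Hsp90b1 and the disulphide isomerase Pdia4 of the endoplasmic reticulum fell by 0.94 and 0.99. Of 14 FoxO target genes, 10 were measured, 3 rose and 5 fell, and Bcl6, a transcriptional repressor, fell by 2.52 ± 0.27. Of 16 glycolysis genes, 12 were measured, 5 rose and 3 fell: the glucose transporter Slc2a3 rose by 1.51 ± 0.13, and Pdk1, which inhibits pyruvate dehydrogenase, fell by 2.42 ± 0.44.

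Hspa5 differed far more between the sets of BeadChips than between the groups, and the number of such genes was not counted. Hspa5 had 11.37, 11.11, 11.17, 7.49 and 7.70 in Cripto with SB431542, against 12.59, 11.72, 11.31, 7.05 and 8.40 in SB431542, the last 2 arrays of each group being those on chips 5 to 7.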
